A study of Mus musculus with 24 samples.

Results

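Flrt1, Disp1 and Sdc3 are 3 genes for proteins of the cell surface that take part in signalling, and they were followed here across 8 mouse tissues through every probe that carries one of these names in the study's lists of mesothelium genes. The 3 genes, of 8313 with a named probe, were read by 4 of the 46120 probes, 2 for Flrt1 (scl6163.1.1_218-S and scl0396184.1_71-S), 1 for Disp1 (scl068897.1_240-S) and 1 for Sdc3 (scl24887.7_12-S). The study put genes on these lists because the same arrays gave a higher signal in mesothelium than in 6 other tissues, so the height of the mesothelium signal is a description of how the probes were chosen and was not tested.

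The study compared the tissue that lines the body cavities with other organs, to find genes that mark it. RNA came from male C57BL/6 mice of 7 weeks with no treatment. The groups were mesothelium of the peritoneum, mesothelium of the pleura and pericardium pooled together, adipose (subcutaneous fat), bladder, heart, liver, lung and skeletal muscle, with 3 arrays for each tissue and 24 in all. Both mesothelium sources were dissected and pooled from many mice, the pool of pleura and pericardium cannot be divided into its parts, and no source states that the 3 arrays of a tissue are separate samples. The p-values below therefore measure only the spread between these arrays, which may be technical.

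Mesothelium is a single layer of flat epithelial cells that covers the peritoneum, pleura and pericardium and releases a lubricating fluid. Flrt1 encodes a transmembrane protein with leucine-rich repeats, of a family that takes part in cell adhesion, binds Unc5 receptors and latrophilins and modulates signalling by fibroblast growth factor (FGF) receptors. Sdc3 encodes syndecan-3, a transmembrane core protein whose heparan sulphate chains bind growth factors, and Disp1 encodes a multipass membrane protein that releases lipid-modified Hedgehog ligands from the cells that make them.

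In the RefSeq annotation of GRCm38.p6 Disp1 lies at chr1:183086264-183221537 and Sdc3 at chr4:130792537-130826318. Flrt1 lies at chr19:7087464-7166183, inside the span of Macrod1 (chr19:7056728-7198062), and its span overlaps the non-coding gene 5730409K12Rik (chr19:7081217-7092042). Where the array's probes lie within these genes is not given in the sources used here. PCR primers for each gene are shown because they are the only designed sequences for these genes used here. They were not matched to a transcript or to an array probe, and 1 pair was listed for Flrt1, with probe scl6163.1.1_218-S. They are written 5′ to 3′, with no part in capitals, and PCR values are not used here.
Flrt1 forward: aggaattcgttcccagcttt
Flrt1 reverse: tctgaaaggcagggctga
Disp1 forward: aatcccaactggagcatgag
Disp1 reverse: aaaaattcggagcaggtgtg
Sdc3 forward: gcgcaatgagaacttcgag
Sdc3 reverse: gagcctgaccccgagtagag

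Levels are log2 normalized signals, with the background already taken off by the authors, and a probe was called detected on an array where its deposited score put it above 99% of the negative controls. Between 8862 and 13441 probes were detected per array. The lowest level of a detected probe, the detection limit of the array, was 6.07 to 7.24 (highest on a liver array). A level below this limit was not detected, but it can still lie above most negative controls. Arrays of 1 tissue correlated at 0.942 to 0.993. All 7 probes for the mesothelium markers Wt1, Msln, Upk3b, Lrrn4 and Muc16 were detected on every array of both sources, with summed signals of 35269 to 43583 in peritoneal and 14367 to 17494 in pleural and pericardial mesothelium. The number detected on all 3 arrays was 5 in bladder (5433 to 6062), 4 in heart (2208 to 2813), 3 in lung (1714 to 4721, with 6 detected on the first array) and 0 in adipose, liver and skeletal muscle (219 to 373.8). All 6 probes for intestine markers (Defa6, Muc2, Zg16) were detected in peritoneal mesothelium, with summed signals of 3637 to 29611, against 225 to 249 in pleural and pericardial mesothelium. Thymus markers (Tbata, Rag1, Prss16, Dntt) went the other way, at 148 to 182 in peritoneal and 904 to 4360 in pleural and pericardial mesothelium. All of these marker probes come from the study's own lists, chosen on the same arrays. The markers chosen for adipose, bladder, lung and skeletal muscle matched no named probe, so these labels were not checked.

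Flrt1 was highest in peritoneal mesothelium, followed by pleural and pericardial mesothelium, bladder and heart. Probe scl6163.1.1_218-S read 9.64, 10.54 and 10.16 on the peritoneal arrays, 8.43, 9.23 and 8.71 on the pleural and pericardial arrays, 8.22, 7.96 and 8.32 in bladder and 7.27, 6.72 and 7.29 in heart. It was detected on every array of these 4 tissues and on no array of the other 4. Skeletal muscle arrays read 6.07, 6.19 and 6.73, lung arrays 5.60, 5.39 and 5.28, liver arrays 4.94, 5.42 and 5.34 and adipose arrays 5.07, 5.52 and 5.05. Every peritoneal array was above every other array, and the lowest pleural and pericardial array lay just above the highest bladder array.

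**Figure D1:**
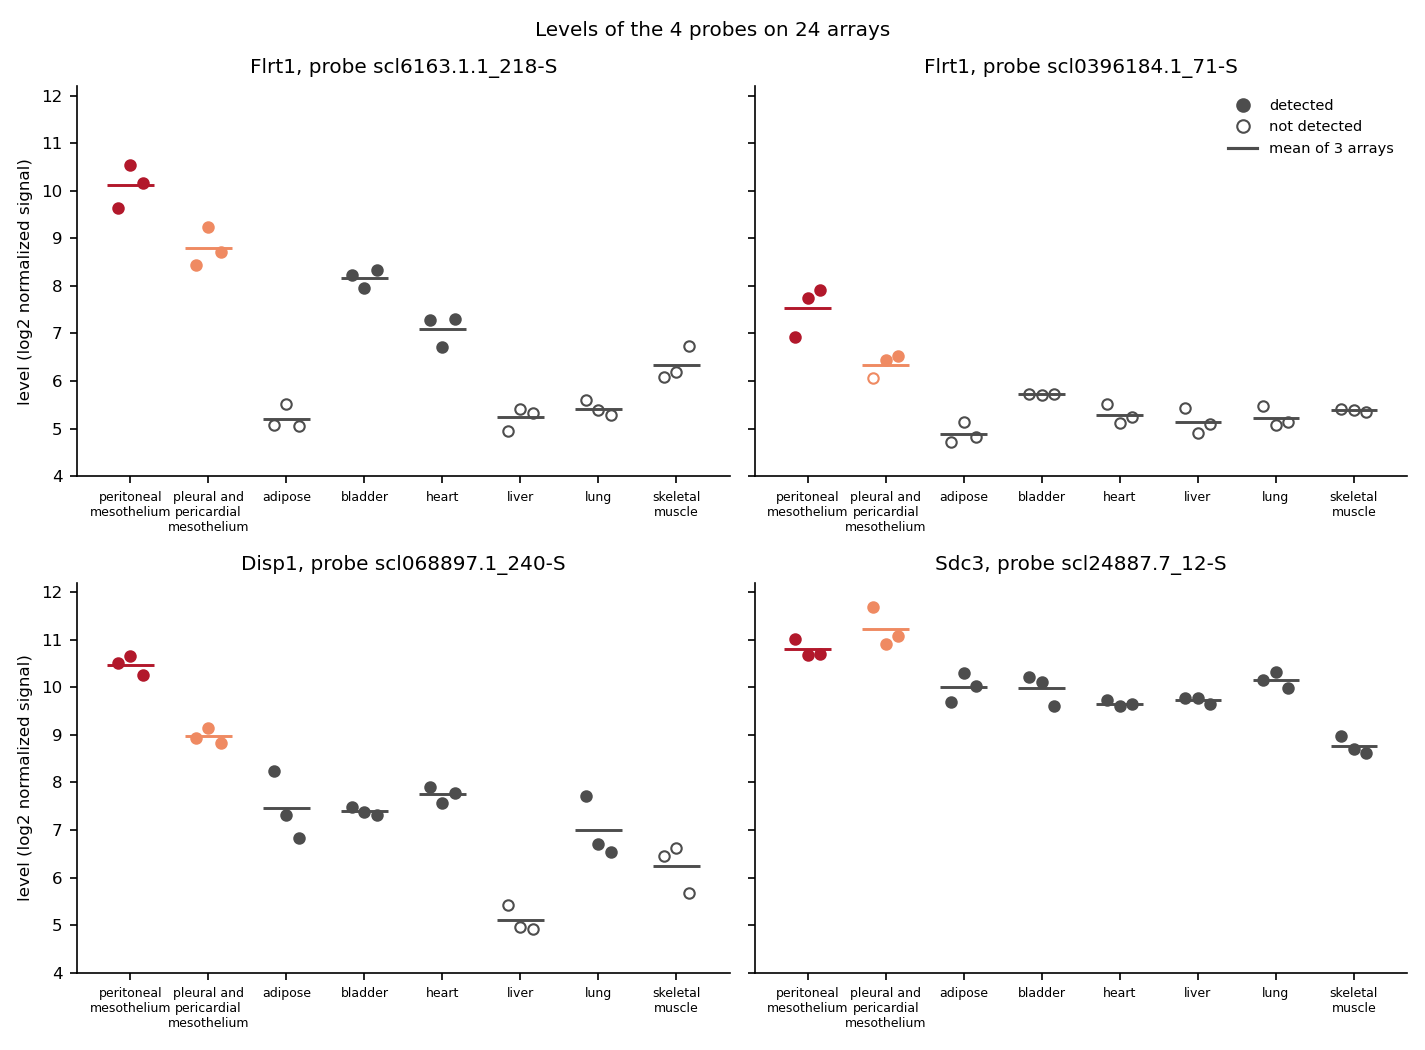
Level of each of the 4 probes (log2 normalized signal) on each of the 24 arrays, by tissue, with filled points for arrays on which the probe was detected, open points for the rest and a line at the mean of 3 arrays. The Flrt1 and Disp1 probes are highest in peritoneal mesothelium (means of 10.12, 7.53 and 10.47), and the Sdc3 probe is highest in pleural and pericardial mesothelium (11.23) and detected everywhere.

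Peritoneal mesothelium exceeded bladder, its nearest tissue, by 1.95 ± 0.24 on the log2 scale (SE), or 3.85-fold, and heart by 3.02 (8.11-fold). Where Flrt1 was not detected, the tissue was set, array by array, at the lowest level at which any probe was detected there, and the fold is then a lower bound. With these bounds, peritoneal Flrt1 was at least 8.18-fold above liver, 9.09-fold above skeletal muscle, 13.9-fold above adipose and 15.6-fold above lung. Pleural and pericardial mesothelium stood 1.53-fold above bladder (log2 difference 0.62 ± 0.24) and 3.23-fold above heart.

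The other Flrt1 probe, scl0396184.1_71-S, gave a similar order at levels near background. It read 6.93, 7.75 and 7.92 in peritoneal mesothelium, with all 3 arrays detected, and 6.07, 6.44 and 6.53 in pleural and pericardial mesothelium, with the first array not detected. No array of the 6 other tissues was detected, and their levels ran from 4.71 to 5.73. Peritoneal mesothelium was at least 1.36-fold (liver) to 2.60-fold (lung) higher with those tissues at their bounds. In pleural and pericardial mesothelium the bounds were 1.01-fold to 1.14-fold over bladder, adipose and lung, and under 1 for the rest. Over the 8 tissue means the 2 Flrt1 probes had a Pearson r of 0.92, and over the 6 other tissues r was 0.88. These points share every array, and for one of the probes all means of the 6 other tissues lie below the detection limit.

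Disp1 was also highest in peritoneal mesothelium, with pleural and pericardial mesothelium next. Its arrays read 10.50, 10.65 and 10.25 in peritoneal mesothelium and 8.94, 9.14 and 8.82 in pleural and pericardial mesothelium. Below them came heart at 7.89, 7.56 and 7.79, adipose at 8.24, 7.31 and 6.82, bladder at 7.47, 7.39 and 7.31 and lung at 7.72, 6.71 and 6.54, all detected. Disp1 was not detected in skeletal muscle (6.46, 6.61 and 5.68) or liver (5.42, 4.96 and 4.93). All peritoneal arrays lay above all pleural and pericardial arrays, and these above every array of the 6 other tissues. Adipose and lung each had 1 array well above the other two. The T cell marker Cd3e split the adipose arrays the other way, with signals of 92.2, 3235 and 2710, and its part in the spread of Disp1 was not tested. The first lung array, the high one for Disp1, also stood apart in the mesothelium markers, with a summed signal of 4721 and 6 of 7 probes detected, against 1808 (3 probes) and 1714 (4 probes) on the other two, and the part of this was not tested.

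Heart was the nearest tissue for Disp1, with peritoneal mesothelium 2.72 ± 0.31 (SE) higher on the log2 scale, or 6.60-fold. The peritoneal excess was 8.05-fold over adipose, 8.45-fold over bladder and 11.1-fold over lung. It was at least 10.4-fold over liver and 11.6-fold over skeletal muscle. Pleural and pericardial mesothelium was 2.33-fold over heart and 2.85-fold over adipose, and at least 3.69-fold over liver.

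Sdc3 differed from the others in being detected on all 24 arrays, with a much narrower range. Pleural and pericardial arrays read 11.69, 10.91 and 11.08 and peritoneal arrays 11.01, 10.68 and 10.70. Lung gave 10.14, 10.31 and 9.98, adipose 9.69, 10.29 and 10.03 and bladder 10.22, 10.11 and 9.60. The lowest levels were those of liver (9.78, 9.78 and 9.66), heart (9.73, 9.60 and 9.64) and skeletal muscle (8.98, 8.71 and 8.61). Every mesothelium array was above every array of the 6 other tissues, whereas the 2 sources overlapped. The pleural and pericardial arrays had the same order in thymus markers (summed signals of 4360, 904 and 2142) and in Cd3e (3308, 923 and 1589). Cd3e read 194, 129 and 89.3 on the peritoneal arrays. The part of these markers in the Sdc3 values was not tested.

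Pleural and pericardial mesothelium exceeded lung, the nearest tissue for Sdc3, by 1.08 ± 0.19 on the log2 scale (SE), or 2.12-fold, and skeletal muscle by 5.50-fold. The folds over the other tissues were 2.33 for adipose, 2.38 for bladder, 2.81 for liver and 2.97 for heart. Peritoneal mesothelium was 1.57-fold above lung and 4.07-fold above skeletal muscle.

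**Figure D2:**
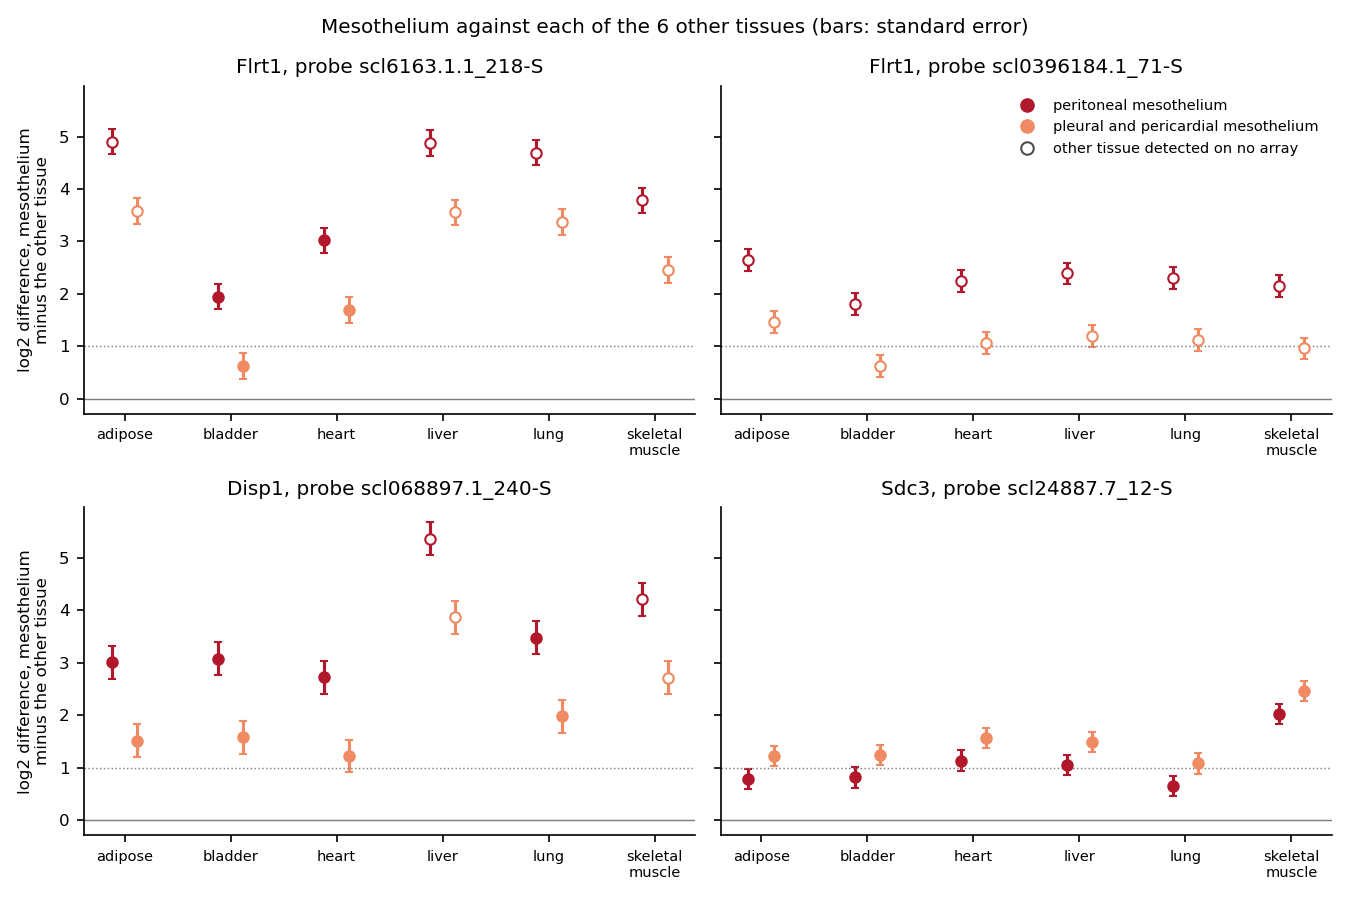
Log2 difference of peritoneal (dark) and of pleural and pericardial mesothelium (light) over each of the 6 other tissues, with standard errors; open points mark tissues where the probe was detected on no array, and the dotted line is a 2-fold difference. All differences are above 0, and the smallest for Sdc3 in pleural and pericardial mesothelium (1.08) and for Flrt1 in that source (0.62 for both probes) lie on either side of the dotted line.

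The study's methods asked for a B-statistic (the log odds that a probe differs) above 0 and at least a 2-fold difference against all 6 tissues. With the values computed here, 319 probes met this in peritoneal mesothelium (0.692% of all) and 203 in pleural and pericardial mesothelium (0.44%). Both Flrt1 probes and Disp1 met it in peritoneal mesothelium alone, with lowest B-statistics of 7.09, 8.53 and 8.46, and Sdc3 met it in pleural and pericardial mesothelium alone. The nearest to the limit was Sdc3 on the inside, at 2.12-fold and a B-statistic of 2.25 over lung. Just outside were Disp1 in pleural and pericardial mesothelium, at 2.33-fold over heart with a B-statistic of -1.37, and Sdc3 in peritoneal mesothelium, at 1.57-fold over lung with a B-statistic of -2.87. These counts and values are the choice itself, and nothing is read from them.

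Between the 2 sources, the peritoneal minus the pleural and pericardial level was 1.33 ± 0.24 (SE) for Flrt1 by probe scl6163.1.1_218-S and 1.19 ± 0.21 by probe scl0396184.1_71-S. It was 1.50 ± 0.31 for Disp1 and -0.43 ± 0.19 for Sdc3. The class of each gene was set on the same arrays, so these differences were not tested either. Arrays of the 2 sources with the same replicate number varied together over the probes detected on all 3 arrays of some tissue. The differences by number were close for Disp1 at 1.56, 1.50 and 1.43. They were 1.21, 1.31 and 1.46 for Flrt1 by probe scl6163.1.1_218-S, 0.86, 1.31 and 1.39 by the other probe, and -0.69, -0.23 and -0.38 for Sdc3. The direction was thus the same on each of the 3 numbers for each of the 4 probes. The intestine and thymus markers given above differed between the same arrays, and so did summed mesothelium markers, with no overlap. Summed fibroblast markers (Col1a1 and Dcn, 4 of 4 probes detected in both) ran from 94064 to 142762 in peritoneal and 45261 to 62328 in pleural and pericardial mesothelium. Of these 4 probes 1, for Dcn, comes from the study's list chosen on the same arrays, so the sum was partly set by that choice. Of the 3 others 2 were higher in peritoneal mesothelium and 1, also for Dcn, did not pass (limma adjusted p = 0.277). The liver marker Apoa1 (12.1-fold, limma adjusted p = 0.000442) and the smooth muscle marker Acta2 (0.000732) were also higher in peritoneal mesothelium, with Acta2 not detected in the pleural and pericardial pool. The part of all these markers in the differences between the sources, here and for the pathway genes below, was not tested. In tissue RNA, fewer cells of a type and less RNA per cell cannot be told apart.

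Differences among the 6 other tissues were not used to choose the genes and could be tested, with limma and Benjamini-Hochberg adjustment over all probes of each pair of tissues. The arrays of these tissues and their spread did enter the choice, so the shares over all probes are a rough comparison only. Of all probes and pairs tested 19.5% passed at an adjusted p under 0.05, and of those for probes detected on all 3 arrays of some tissue 47.3%. Over all probes, the share that differed from skeletal muscle was 26.1% for lung, 23.9% for adipose, 21.6% for liver, 21.4% for bladder and 11.9% for heart. From liver, 24.7% differed for lung, 21.6% for adipose, 21.5% for bladder and 20.6% for heart. It was 19.4% between heart and lung, 18.6% between adipose and heart, 16.5% between bladder and heart, 16.4% between adipose and bladder, 14.4% between adipose and lung and 13.4% between bladder and lung. Against these shares, Flrt1 passed in 12 of its 15 pairs by probe scl6163.1.1_218-S and in 1 by probe scl0396184.1_71-S, Disp1 in 8 and Sdc3 in 5. The 12 include 3 pairs in which both tissues were below the detection limit. The Disp1 share is close to that of detected probes in general, and the Sdc3 share lies below it.

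**Figure D3:**
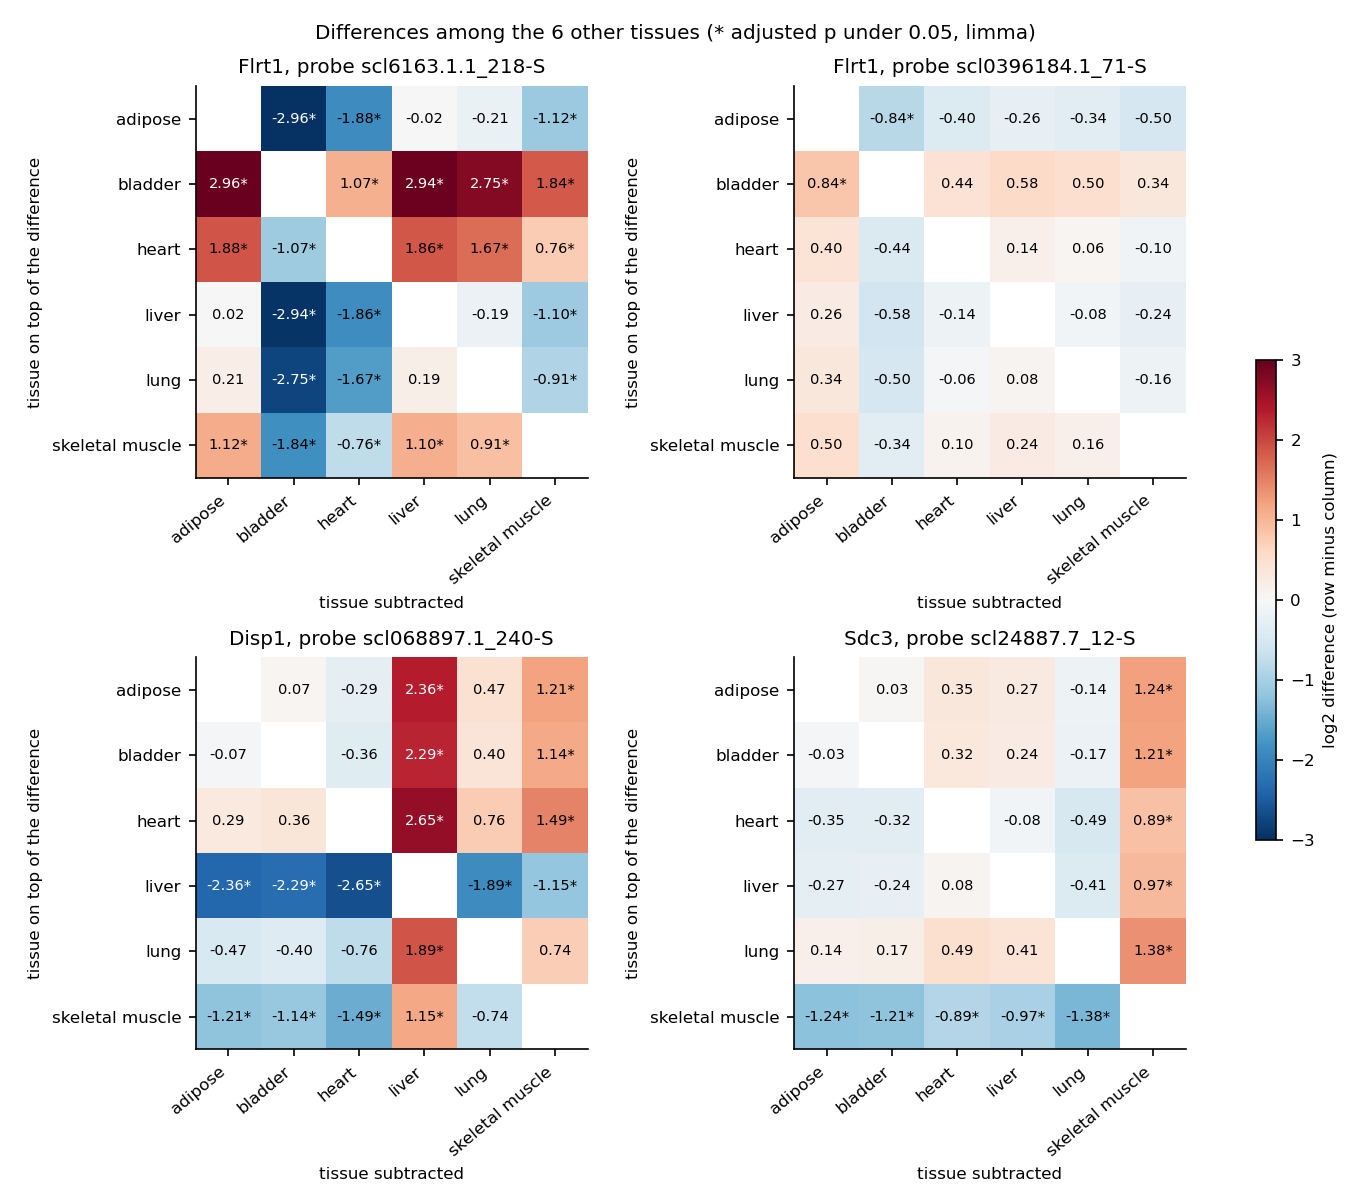
Log2 difference of the tissue in each row minus the tissue in each column, for the 4 probes among the 6 other tissues, with a star where the adjusted p from limma was under 0.05. Flrt1 by probe scl6163.1.1_218-S is higher in bladder than in each of the other 5 (1.07 to 2.96), Disp1 is lower in liver than in each of the other 5, and Sdc3 is lower in skeletal muscle than in each of the other 5.

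Bladder and heart set the Flrt1 pattern. Bladder averaged 8.17 ± 0.19 and heart 7.10 ± 0.33 (SD, n = 3 arrays each), a difference of 1.07 ± 0.24 (SE, 2.11-fold, limma adjusted p = 0.00277) with no overlap of arrays. Bladder was at least 3.61-fold above adipose (adjusted p = 1.18e-08, limma), at least 4.04-fold above lung and at least 2.12-fold above liver. Heart exceeded skeletal muscle, which was not detected, by 0.76 ± 0.24 (SE, at least 1.12-fold, limma adjusted p = 0.0466), with overlapping arrays. That call was lost under 18 of 34 alternatives, with a limma adjusted p of 0.208 at the most. The difference of skeletal muscle over lung, the next in order, passed at 0.91, but both tissues were below the detection limit. This call was lost without the third skeletal muscle array (limma adjusted p = 0.0545). Lung over liver (0.19) and liver over adipose (0.023) did not pass. Summed mesothelium markers were also highest in bladder among these tissues, then in heart and lung in overlapping ranges. They were low in skeletal muscle, liver and adipose. Upk3b by probe scl00100647.2_230-S, at a mean of 12.07, weighed most in the bladder sum. The paper detected UPK3B in human urothelial cells as well. Single genes differed in order. Upk3b and Muc16 were highest in bladder, but Wt1 averaged 8.69 ± 0.17 in heart and 8.03 ± 0.10 in bladder (SD, n = 3 arrays each). Msln averaged 9.13 ± 1.04 in lung and 8.94 ± 0.16 in bladder, and Lrrn4 6.50 in heart and 6.21 in bladder. Lung, with 3 to 6 of the 7 marker probes detected per array, had no array with Flrt1 detected. The part of serosal mesothelium in the bladder and heart values was not tested.

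By probe scl0396184.1_71-S only bladder over adipose passed, at 0.84 ± 0.21 (SE, limma adjusted p = 0.00624), with no array of either tissue detected, so no fold is given. Bladder was the highest of the 6 tissues for this probe too.

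Disp1 was lower in liver than in all of the other 5 tissues. Heart exceeded liver by 2.65 ± 0.31 (SE, at least 1.58-fold, adjusted p = 1.20e-06, limma), adipose by 2.36 (at least 1.30-fold) and bladder by 2.29 (at least 1.24-fold). Lung exceeded liver by 1.89 and skeletal muscle exceeded it by 1.15, with no fold given because the bound for liver lay above the lung level and skeletal muscle was itself not detected. Skeletal muscle was below heart, adipose and bladder, by 1.49, 1.21 and 1.14. Without the third skeletal muscle array neither adipose (limma adjusted p = 0.0524) nor bladder (0.0814) passed over skeletal muscle. Adipose over skeletal muscle was also lost without the first adipose array (0.0532) and with separate fits (0.106). Skeletal muscle over liver was lost without the second skeletal muscle array (0.0583) and with an offset of 50 (0.0596, all limma adjusted p). Among the 4 tissues with Disp1 detected, the neighbours in order did not pass: heart over adipose (0.29), adipose over bladder (0.069) and bladder over lung (0.40). Heart over lung, at 0.76 ± 0.31 (SE), did not pass either (limma adjusted p = 0.114), but it passed with the replicate block (0.0349), with array weights (0.00234), without the first adipose array (0.0491) and without the first lung array, where it was 1.12 (0.0120). Bladder over lung passed with array weights alone (0.0271). Lung over skeletal muscle, at 0.74 ± 0.31 (SE), did not pass without a block for the replicate number (limma adjusted p = 0.0977) and passed with it (0.0306) and under 4 other alternatives (0.00271 to 0.0490), and arrays of these 2 tissues with the same number did vary together.

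Every pair that passed for Sdc3 had skeletal muscle as the lower tissue. It averaged 8.77 ± 0.19 (SD, n = 3 arrays) and lay below lung by 1.38 ± 0.19 (SE, 2.60-fold, adjusted p = 9.29e-06, limma). Adipose was 1.24 above it, bladder 1.21, liver 0.97 and heart 0.89 (1.85-fold, adjusted p = 0.00280, limma). Among lung, adipose, bladder, liver and heart no pair passed, and the widest difference was that of lung over heart, at 0.49 ± 0.19 (SE, limma adjusted p = 0.0924), although their arrays did not overlap. It passed with separate fits (limma adjusted p = 0.0245), with array weights (0.00903) and without the first pleural and pericardial array (0.0437), and lung over liver passed with array weights (0.0440).

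The other genes of the same pathways are given by probes of fixed lists, most of them named through the gene number in the probe identifier. Those from the study's lists were chosen on these arrays and are described only. For the rest the sources were compared in the same fit, a comparison added after the data had been seen. Over all probes 3.41% passed as higher in peritoneal and 2.4% as higher in pleural and pericardial mesothelium, and over detected probes 9.09% and 6.2%. These shares include the probes of the study's lists, which the counts of passing probes below leave out. The median difference was 0.0075 over all probes.

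Of 12 such probes for the FLRT family and its partners, 1 was higher in peritoneal mesothelium, 0 were higher in pleural and pericardial mesothelium and 11 did not pass (median difference 0.055). The probe that rose was 1 of 2 for Flrt3, the third member of the family, at 8.60 ± 0.08 in peritoneal and 7.51 ± 0.28 in pleural and pericardial mesothelium (SD, n = 3 arrays each, 2.12-fold, limma adjusted p = 4.73e-05). Flrt3 by this probe was far higher in lung (11.89 ± 0.31) and bladder (10.30 ± 0.08) than in either source. Flrt2, from the study's list, read 8.82 ± 0.59 in peritoneal and 8.77 ± 0.69 in pleural and pericardial mesothelium and was at most 6.99 elsewhere. The 3 family members thus ran in different orders across the tissues. Unc5b, a receptor for netrins that FLRT proteins also bind, was highest in bladder at 10.76 ± 0.08, against 7.62 ± 0.44 in peritoneal mesothelium. The latrophilin Adgrl1 was 0.90 ± 0.34 (SE) higher in peritoneal mesothelium and did not pass (limma adjusted p = 0.174). Fgfr1 was detected on 2 peritoneal arrays, 1 pleural and pericardial array and 1 adipose array, at low levels.

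For the FGF ligands, 1 of 11 probes passed as higher in peritoneal and 2 as higher in pleural and pericardial mesothelium (median difference -0.042). Fgf9 averaged 8.10 ± 1.06 in peritoneal and 6.08 ± 0.74 in pleural and pericardial mesothelium (SD, n = 3 arrays each, limma adjusted p = 0.00582), where 1 array was detected. Fgf10 ran the other way, at 7.33 ± 0.66 in peritoneal and 8.92 ± 0.38 in pleural and pericardial mesothelium (limma adjusted p = 0.00164), and was higher still in adipose (10.45 ± 0.57). Fgf13, which acts inside the cell rather than as a secreted ligand, was not detected in peritoneal mesothelium and was at least 1.85-fold higher in the pleural and pericardial pool (limma adjusted p = 0.00414). With separate fits neither Fgf9 (limma adjusted p = 0.141) nor Fgf10 (0.0600) passed. The second probes of Fgf10 and Fgf13 did not pass. The study's lists add Fgf1 (12.61 ± 0.88 in peritoneal and 9.84 ± 0.61 in pleural and pericardial mesothelium), Fgf18, Fgf5 and a further Fgf9 probe, all higher in peritoneal mesothelium as chosen.

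Of 20 probes for syndecans, glypicans and the heparan sulphate machinery, 4 were higher in peritoneal mesothelium, 2 were higher in the pleural and pericardial pool and 14 did not pass (median difference 0.067). Hspg2, the basement membrane proteoglycan perlecan, averaged 11.73 ± 0.20 in peritoneal and 10.15 ± 0.04 in pleural and pericardial mesothelium (SD, n = 3 arrays each, 2.99-fold, limma adjusted p = 2.92e-07). Sdc2 was 0.90 ± 0.21 (SE) higher in peritoneal mesothelium (limma adjusted p = 0.0102), Agrn 0.60 ± 0.14 higher (0.0134) and Gpc6 at least 1.33-fold higher (0.000161). Without the second peritoneal array Sdc2 (limma adjusted p = 0.0618) and Agrn (0.0942) did not pass, nor Sdc2 without the third (0.0732) or Agrn without the first (0.0869) pleural and pericardial array. The Agrn call was also lost with the authors' normalized values (0.0520), with median centring (0.0578) and with separate fits (0.0944, all limma adjusted p). Gpc1, a glypican held in the membrane by a lipid anchor, averaged 8.95 ± 0.34 in peritoneal and 11.40 ± 0.45 in pleural and pericardial mesothelium, a difference of -2.45 ± 0.26 (SE, limma adjusted p = 3.22e-06). Its highest levels were in heart (14.28 ± 0.14) and skeletal muscle (14.05 ± 0.14), and the heart muscle marker Myh6 was detected on 2 of the 3 pleural and pericardial arrays and on no peritoneal array; its part in the Gpc1 value was not tested. The other probe higher in that pool was 1 of Ndst4, below the detection limit in both sources, and its call was lost under 5 alternatives. Of the 2 probes for Sdc1, syndecan-1, the first was detected in bladder, liver and lung (9.53 ± 0.10, 8.95 ± 0.32 and 8.44 ± 0.41) and on no array of either mesothelium source, and the second was not detected there either. The syndecans with a named probe that were detected in mesothelium were Sdc2 and Sdc3. From the study's list, the 2 probes of Sulf1, an enzyme that removes sulphate groups from heparan sulphate outside the cell, read 11.34 ± 0.05 and 10.32 ± 0.13 in peritoneal and 11.06 ± 0.13 and 10.06 ± 0.40 in pleural and pericardial mesothelium.

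Among 15 Hedgehog probes 2 were higher in peritoneal mesothelium, 0 in the pleural and pericardial pool and 13 did not pass (median difference 0.065). Gli2, a transcription factor at the end of the pathway, averaged 8.31 ± 0.22 in peritoneal and 7.24 ± 0.30 in pleural and pericardial mesothelium (SD, n = 3 arrays each, 2.10-fold, limma adjusted p = 0.00364), and bladder reached 7.97 ± 0.07. The other was 1 of 2 probes for Hhat, the enzyme that attaches palmitate to Hedgehog ligands, and was detected on 1 array only; its call was lost with separate fits (limma adjusted p = 0.151) and with array weights (0.0529). Smo, the membrane protein that carries the signal into the cell, read 10.44 ± 0.21 in peritoneal and 9.05 ± 0.33 in pleural and pericardial mesothelium by one of its 2 probes and did not pass (limma adjusted p = 0.0533), though it passed under 9 alternatives. Of the 16 Hedgehog probes other than Disp1, 8 were detected on no array, among them those of the receptor Ptch1, the inhibitor Sufu and Disp2. Of the Hedgehog ligands only Dhh had a named probe, and it was detected on 1 lung array. Cdon, a co-receptor for Hedgehog ligands from the study's list, read 10.08 ± 0.32 in peritoneal and 8.99 ± 0.20 in pleural and pericardial mesothelium by that probe, and its second probe was detected nowhere.

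**Figure D4:**
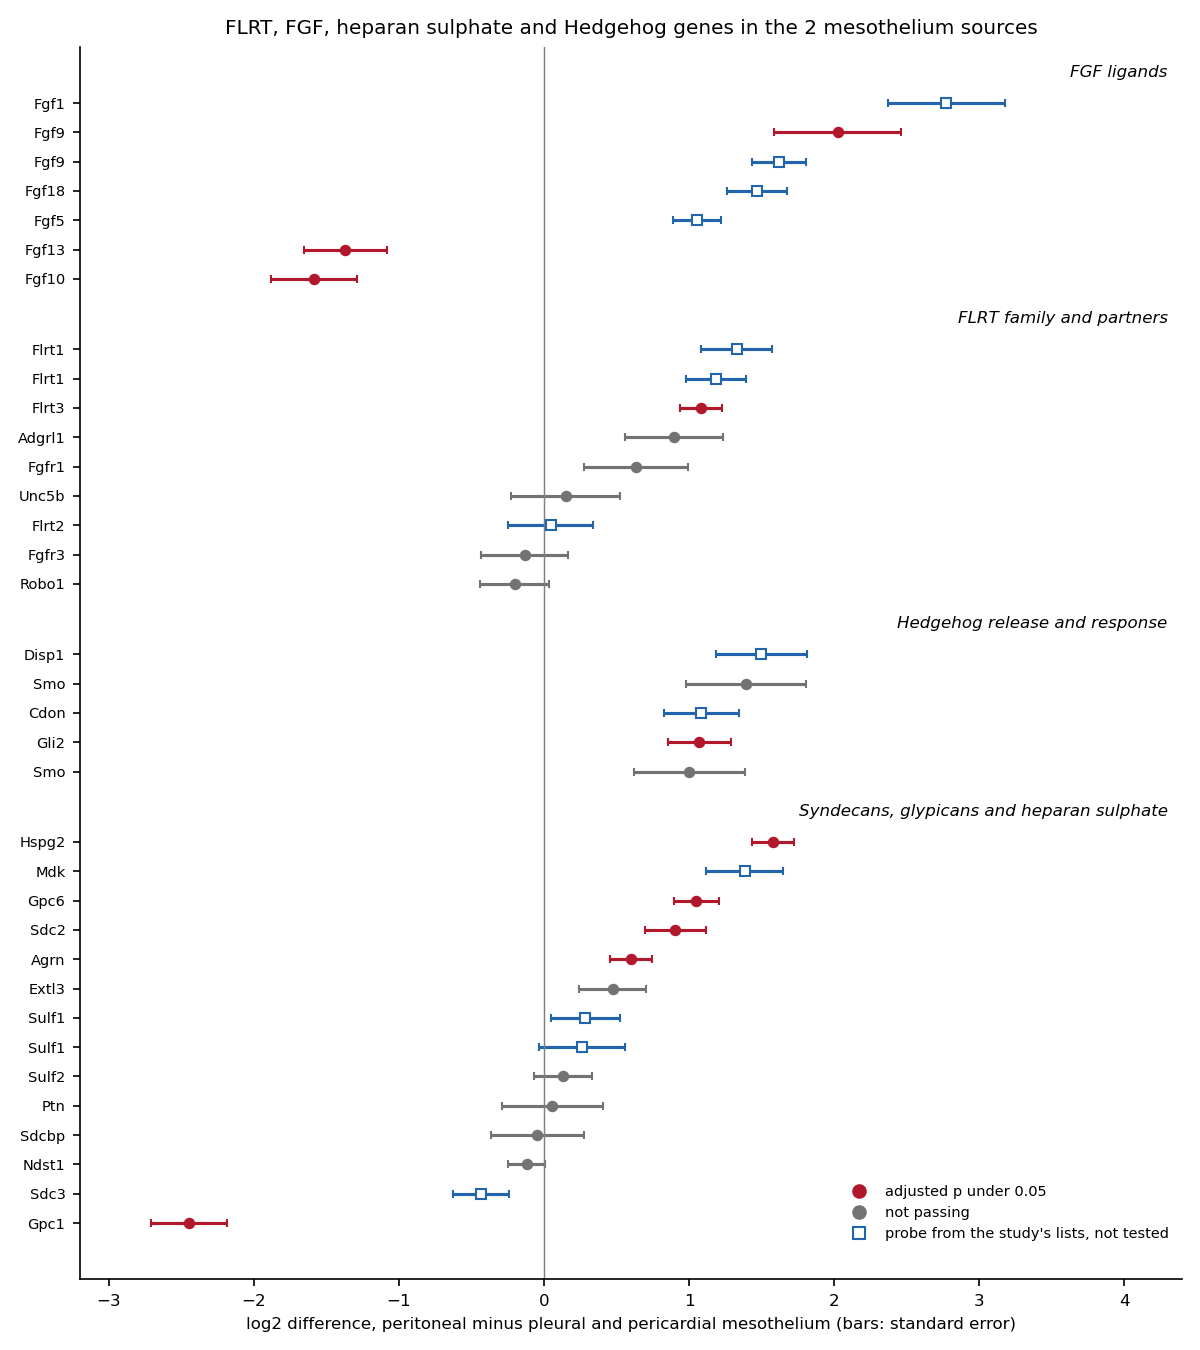
Log2 difference of peritoneal minus pleural and pericardial mesothelium, with standard errors, for the 35 probes of the lists detected on at least 3 of the 6 mesothelium arrays; circles were tested with limma and squares come from the study's lists and were not tested. Among circles with a limma adjusted p under 0.05, Hspg2, Gpc6, Sdc2, Agrn, Flrt3, Gli2 and Fgf9 lie to the right (0.60 to 2.03). Gpc1, Fgf10 and Fgf13, which also passed, lie to the left (-2.45 to -1.37). Circles of Smo (1.39 and 1.00), Adgrl1 (0.90) and Fgfr1 (0.64) lie in the same range to the right but did not pass.

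The probes most like each of the 4 were sought among 4807 named probes detected on all 3 arrays of some tissue, by Pearson r over the 8 tissue means, as a description with no test. For Flrt1 by probe scl6163.1.1_218-S they were Zbtb7c (0.98), 5730409K12Rik (0.98) and Papln (0.97). The second of these is the non-coding gene whose span overlaps that of Flrt1, and it averaged 9.02 ± 0.48 in peritoneal and 7.56 ± 0.22 in pleural and pericardial mesothelium, 6.88 ± 0.07 in bladder and 6.06 ± 0.14 in heart (SD, n = 3 arrays each), with no heart array detected. For the other Flrt1 probe they were Ttyh1 and Espn (0.99 each) and Wnt2b (0.99), of which Wnt2b, a secreted Wnt ligand, read 10.51 ± 0.46 in peritoneal and 8.02 ± 0.52 in pleural and pericardial mesothelium. Disp1 was most like Gnl1 (0.97), Cdon (0.97) and B3gnt9-ps (0.96). Cdon followed Disp1 in detection as well, being not detected in liver and detected on 1 of 3 arrays in skeletal muscle. Gnl1 spanned only 9.17 to 9.98 across the tissue means. Sdc3 was most like H2ac12 (0.93), Cotl1 (0.92) and Fadd (0.92), with lower coefficients than the other 3 probes reached. All these coefficients rest on 8 points that share their arrays with the probe they are set against. Zbtb7c, 5730409K12Rik, Ttyh1, Espn, Wnt2b, Cdon and B3gnt9-ps come from the study's lists, chosen for a higher mesothelium signal on these arrays. The 4 probes were chosen in the same way, so high coefficients over means that include mesothelium are partly set by the choice. Between the genes, r over the 8 means was 0.85 for Disp1 with Flrt1 by probe scl6163.1.1_218-S, 0.73 for Disp1 with Sdc3 and 0.59 for Sdc3 with that Flrt1 probe, and over the 6 other tissues the same pairs gave 0.47, 0.35 and -0.10.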

How the data were processed

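RNA of 8 tissues, 3 arrays each, was measured on Illumina Mouse Sentrix-6 BeadChips. The authors deposited a signal intensity from BeadStudio for 46120 probes, with background subtracted (36.0% at or below 0) and no normalization between arrays, and a detection score, equal to 1 minus the p of a detection test. They also deposited intensities quantile normalized with Lumi. The build behind the probe annotation is not given in the sources used here.

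The limma (3.58.1, R 4.3.3) steps of neqc were applied with an offset of 16: normexp with 1616 negative controls inferred from the scores (10 probes with averaged scores left out of this inference), quantile normalization and log2. Both orders of the last 2 steps were run; the order of neqc was taken as the main one after both results had been seen, and the other is an alternative. One mean per tissue was fitted over the 24 arrays (eBayes proportion 0.01), with Benjamini-Hochberg adjustment over all probes. The test was tried on simulated data, and no result given here rests on that trial. Detection used 1 minus the score under 0.01. The number of arrays limits the precision.

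Names came from the study's supplementary lists (350 probes), from which the member probes were taken, and, a step added after the data had been seen, from the gene number in 9832 probe identifiers matched to RefSeq (GRCm38.p6). Of 97 probes named both ways 92 gave the same gene, and the 5 others belong to the defensin and immunoglobulin families. Named probes are the 4 members, the list members with a probe and the 3 most alike probes of each member. Members, lists and tests were chosen with earlier results of these data known. The authors' fold changes and B-statistics in the supplement were not used, nor were PCR values.

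Same-numbered arrays were checked for pairing by the correlation of their deviations from the tissue mean. It was 0.60, 0.59 and 0.63 between the 2 mesothelium sources and over 0.1 for every number in 7 of 28 pairs of tissues, so a block for the replicate number was run as an alternative.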

Additional observations from a re-analysis of the deposited data

How the results depend on the processing

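No difference that passed turned its direction. The sign turned in 69 values under an alternative, 19 for pairs of tissues and 50 for list probes between the sources, of which 0 passed by limma in either setting. Of the pairs of other tissues for the 4 probes, 25 calls over all settings were lost and 35 gained, mostly for Flrt1 probe scl0396184.1_71-S and for heart over skeletal muscle by the other Flrt1 probe. Flrt1 probe scl0396184.1_71-S, near background, changed most. Its passing pairs numbered 3 with a shift to a minimum of 1 in place of normexp and with the authors' values, 2 with only detected probes and with the averaged scores kept, 5 with separate fits, 4 with array weights, 0 by B-statistic and 1 to 4 with 1 array left out (4 without the first peritoneal array, and 2 without the third peritoneal, the first pleural and pericardial, the second adipose, the first liver or the first lung array). Its smallest peritoneal difference was 1.21 with the shift, 1.34 with an offset of 50, 2.58 with the authors' values and 1.62 to 2.11 with 1 array left out, and its difference between the sources was 0.83, 1.59 and 0.99 to 1.49 under the shift, the authors' values and left-out arrays. By B-statistic and 2-fold the passing pairs were 5 for Disp1, 3 for Sdc3 and 7 for the other Flrt1 probe. The cause of these changes was not tested. Separate fits left 1 FGF probe passing between the sources.

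With 1 array left out, passing pairs were 11 to 12 for Flrt1 probe scl6163.1.1_218-S, 6 to 9 for Disp1 and 5 to 6 for Sdc3. The smallest differences ran from 1.73 to 2.18 for that Flrt1 probe, 2.63 to 2.83 for Disp1 and 0.85 to 1.24 for Sdc3, which fell under 2-fold without the first pleural and pericardial array. The differences between the sources were 1.11 to 1.57, 1.41 to 1.61 and -0.59 to -0.20. Probes passing between the sources were 1 to 2 for the FLRT list (2 without the second peritoneal array), 3 for FGF ligands, 3 to 6 for heparan sulphate (3 without the second peritoneal array) and 2 to 3 for Hedgehog. With the replicate block the passing pairs were 12, 1, 10 and 5 for Flrt1 (scl6163.1.1_218-S and scl0396184.1_71-S), Disp1 and Sdc3, and the counts between the sources were unchanged. Taking log2 before quantile normalization, an alternative added after seeing the data, changed no call reported here. Folds near background are made smaller by the offset, and detection limits differ between arrays, being highest in liver.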
